A study of Mus musculus with 3 samples.

Results

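The interleukin-1 (IL-1) system and its NF-kB arm were followed through 8 genes: the agonist *Il1b*, the signalling receptor *Il1r1*, the decoy receptor *Il1r2*, the receptor antagonist *Il1rn*, the inflammasome sensor *Nlrp3*, the adaptor *Myd88*, the NF-kB inhibitor *Nfkbia*, and the kinase *Ikbke*. They were chosen by symbol, as the entries whose gene name equalled one of these names, and all 8 were found among the 1238 different entries of the 3 deposited comparisons. IL-1β is made as a precursor, which caspase-1 cleaves inside an inflammasome such as the one built on NLRP3. The mature cytokine binds IL-1R1, the receptor recruits MyD88, and kinases downstream mark the inhibitor IκBα, encoded by *Nfkbia*, for destruction, which frees NF-kB to enter the nucleus and switch on cytokine, chemokine, and protease genes. IL-1R2 binds the cytokine without signalling and the *Il1rn* product occupies the receptor without activating it. In arteries, IL-1β is known as a signal that recruits leukocytes and activates cells of the vessel wall.

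The 3 RNA-seq libraries came from the suprarenal aorta of male apoE null mice on the C57BL/6 strain, which lack apolipoprotein E, carry high blood lipids, and were 12 weeks old when pumps were implanted. The AngII AAA library came from mice infused with angiotensin II (AngII) that formed a dissecting abdominal aortic aneurysm (AAA), and it included the aneurysm tissue, taken within 24 hours of diagnosis. The AngII No AAA library came from mice given the same infusion without a visible aneurysm, and the Saline pool from mice infused with saline, both taken by day 10, so that time and aneurysm differed together between the AngII cohorts. Each library was 1 pool of equal amounts of RNA from several animals, from the distal part of the segment. In these libraries, no difference between cohorts could therefore be set against replicates or tested. The paper also measured *Il1b* and *Mmp9* by real-time PCR with biological replicates, and reports *Il1b* as upregulated in both AngII cohorts. Values are FPKM, the reads on a gene divided by its length and by a depth scale of its library, set separately in each comparison. In each comparison, only entries with an unadjusted p-value of the authors under 0.05 were deposited, and a gene that is not listed in a comparison cannot be read there and is not shown to be equal.

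Promoter sequences show how the letters of NF-kB sites are spread over these genes. RefSeq (GRCm38.p6) gave 12 promoter windows for the 8 genes, each running from 250 bases before a transcription start to 50 bases after it. Of these, 3 held the κB consensus on either strand, in *Nfkbia*, *Il1r1*, and *Nlrp3*, compared with 4.51% of the 32851 windows searched. The windows searched did not take in every chromosome. The shorter form GGANNTTCC was chosen after the sequences were seen and can overlap the first. It lay in 4 windows, those of *Nfkbia*, *Il1r2*, *Myd88*, and *Nlrp3*, compared with 4.26% of the windows searched. The 250 bases before the start are printed for the feedback inhibitor of NF-kB, whose window held 2 matching stretches, for the decoy receptor, which had the largest difference among the 8 genes, and for the agonist, whose window held no match. Capitals mark the matches, and a match or its absence describes only the letters of this window.
*Nfkbia* (chr12:55492648-55492897, minus strand): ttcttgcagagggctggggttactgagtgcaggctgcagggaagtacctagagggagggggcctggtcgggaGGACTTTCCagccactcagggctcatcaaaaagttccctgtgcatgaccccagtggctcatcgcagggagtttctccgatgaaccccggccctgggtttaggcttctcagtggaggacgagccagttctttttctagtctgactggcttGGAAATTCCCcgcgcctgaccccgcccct
*Il1r2* (chr1:40085843-40086092, plus strand): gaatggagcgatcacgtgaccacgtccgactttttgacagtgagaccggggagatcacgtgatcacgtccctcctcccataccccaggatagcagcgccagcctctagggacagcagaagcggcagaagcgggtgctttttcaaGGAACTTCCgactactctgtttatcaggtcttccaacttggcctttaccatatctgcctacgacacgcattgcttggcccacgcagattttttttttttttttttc
*Il1b* (chr2:129371140-129371389, minus strand): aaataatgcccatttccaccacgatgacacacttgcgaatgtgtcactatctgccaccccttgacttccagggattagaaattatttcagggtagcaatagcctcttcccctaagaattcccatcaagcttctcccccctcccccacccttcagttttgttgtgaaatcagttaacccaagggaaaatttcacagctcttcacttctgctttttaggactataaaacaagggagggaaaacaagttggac

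The number of reads behind these values could be recovered in part. After scaling by a constant for relative depth, 14.1% to 23% of the FPKM ratios in a comparison were ratios of whole numbers with at most 10 reads in the second library (45.2% to 56.9% with at most 60), within a relative tolerance of 6e-06, while other constants gave such ratios for a median of 0 to 2 entries. With transcript lengths, these placed the number of reads by which FPKM was divided at 3430000 to 3550000 for the AngII AAA pool. It was 2210000 to 2410000 for the AngII No AAA pool and 2090000 to 2290000 for the Saline pool. Each library had a different divisor in each comparison, so that these are scales set per comparison and not totals of its reads. The series design gives 35000000 to 43000000 reads per library, and how the divisors relate to those was not tested. Of the genes described here, 26 had reads recovered, and for all 13 combinations of gene and library read in 2 comparisons, the same number of reads came out of both. The values of the 8 genes therefore rested on 5 to 415 reads where reads could be recovered, and intervals given here are exact 95% intervals that cover counting error only, not the spread between animals.

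The AngII AAA pool held the higher value wherever any of the 8 genes was listed. In AngII AAA vs. AngII No AAA, 4 of the 8 genes were listed (*Il1b*, *Il1r2*, *Il1rn*, and *Nlrp3*) and all 4 were higher in the AngII AAA pool, where 79% of all 600 listed entries were also higher. Their median log2 fold change was 2.67, compared with 1.63 over all entries with values above 0. Of the 4, 3 were at least 4-fold higher, a size reached by 31.5% of entries, and none was 4-fold lower, as 4.62% of entries were. In AngII AAA vs. Saline, 5 of the 8 were listed (*Il1r1*, *Il1rn*, *Myd88*, *Nfkbia*, and *Ikbke*) and all 5 were higher in the AngII AAA pool, as were 84.6% of the 715 entries. Their median log2 fold change of 1.89 was below the 2.26 of all entries, and only *Il1rn* was at least 4-fold higher, compared with 63.7% of entries, while 7.09% of entries were 4-fold lower. In AngII No AAA vs. Saline, 0 of the 8 were listed among 564 entries, of which 63.5% were higher in the AngII No AAA pool, 9.89% at least 4-fold higher, and 3.48% at least 4-fold lower. The agonist, the decoy, and the sensor were thus read only against the AngII No AAA pool, and the receptor and the cytoplasmic genes only against the Saline pool. In bulk tissue, more cells of a type and more RNA per cell cannot be told apart.

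**Figure D1:**
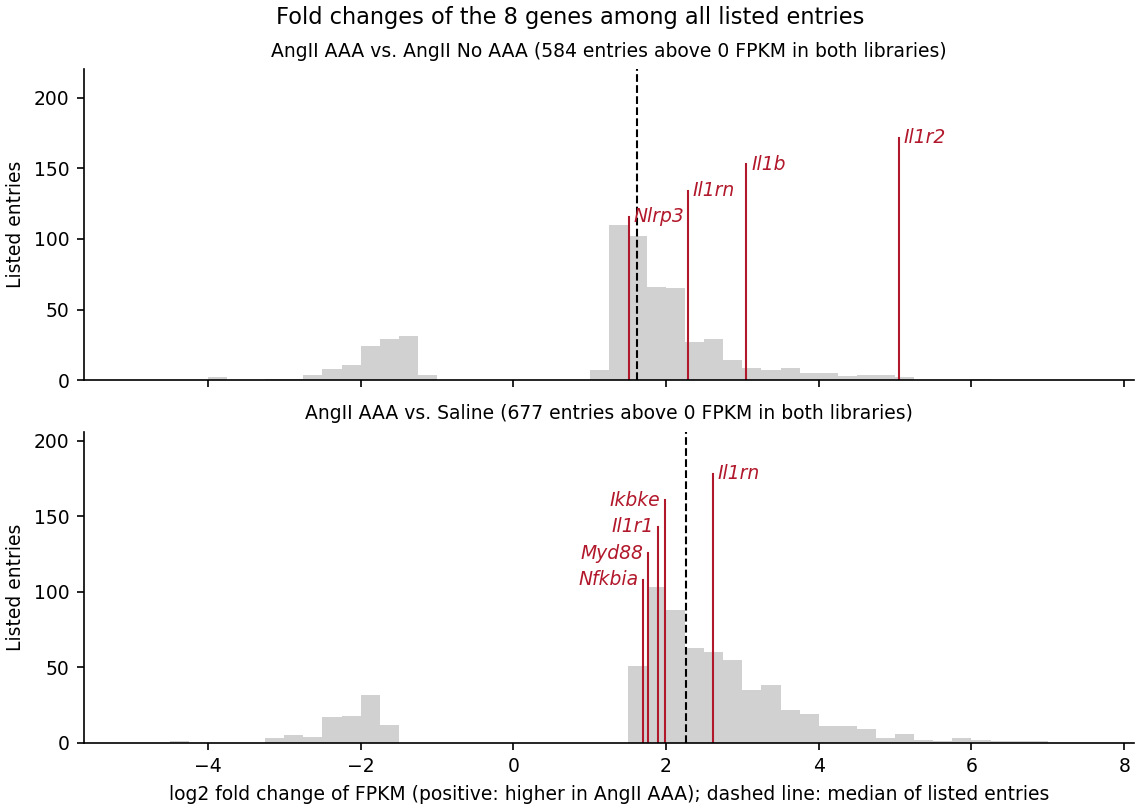
Histograms of the log2 fold change of FPKM (x axis, positive where the AngII AAA pool is higher) over all entries with values above 0, with the number of entries on the y axis and the listed members of the 8 genes as red lines. *Il1r2* at 5.05 and *Il1b* at 3.05 stand in the upper tail against the AngII No AAA pool, while against the Saline pool all but *Il1rn* lie below the median of 2.26 (dashed).

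The agonist and the sensor that governs its processing were both higher with an aneurysm, the agonist by more. *Il1b*, which encodes IL-1β (chr2:129190315-129201469 in mm9), had 25.9 FPKM in the AngII AAA pool and 3.12 FPKM in the AngII No AAA pool. This is an 8.30-fold difference, or a log2 fold change of 3.05, and ranked 48 from the top of 584 entries. It rested on 122 and 10 reads, which gives a counting interval of 4.36-fold to 17.8-fold. *Nlrp3*, the sensor protein of the inflammasome (chr11:59356187-59380458), had 6.17 FPKM and 2.16 FPKM, or 88 and 21 reads, in the same libraries. Its 2.85-fold difference (counting interval 1.76 to 4.83) ranked 347, close to the median of the comparison.

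Both brakes on IL-1 were higher in the AngII AAA pool, and the decoy receptor differed most of the 8 genes. *Il1r2* (chr1:40133056-40182070) had 51.0 FPKM in the AngII AAA pool and 1.54 FPKM in the AngII No AAA pool, a 33.1-fold difference (log2 fold change 5.05) that ranked 3 from the top. The AngII No AAA value came from 5 reads and the AngII AAA value from 243, so that the counting interval ran from 14.0-fold to 103-fold. *Il1rn*, the antagonist (chr2:24192379-24207011), was the only one of the 8 genes listed against both other libraries. It had 22.0 FPKM and 4.51 FPKM in AngII AAA vs. AngII No AAA, a 4.87-fold difference, and 22.7 FPKM and 3.70 FPKM in AngII AAA vs. Saline, a 6.13-fold difference. Its 4 annotated transcripts differ in length, and its reads could be placed only between 2.72 and 20.9 in the Saline pool. *Il1r1*, the receptor that signals (chr1:40281924-40373022), had 44.1 FPKM in the AngII AAA pool and 11.9 FPKM in the Saline pool, a 3.72-fold difference (log2 fold change 1.89) that ranked 473 of 677 entries, with about 131 to 158 reads behind the lower value, depending on the transcript.

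The signalling genes inside the cell were each between 3-fold and 4-fold higher in the AngII AAA pool than in the Saline pool. *Myd88*, the adaptor shared by IL-1 and most Toll-like receptors (chr9:119245105-119249158), had 23.4 FPKM and 6.88 FPKM, from 153 and 30 reads. Its 3.40-fold difference had a counting interval of 2.29 to 5.21. *Nfkbia* (chr12:56590395-56593634), which NF-kB itself switches on as a feedback brake, had 76.5 FPKM and 23.5 FPKM, from 415 and 85 reads, a 3.25-fold difference (counting interval 2.57 to 4.16). *Ikbke* (chr1:133151178-133176140), an IκB kinase relative known for interferon responses, had 11.4 FPKM and 2.86 FPKM, from 125 and 21 reads, and its 3.97-fold difference (counting interval 2.49 to 6.64) stopped just short of the 4-fold size. All 3 ranked in the lower part of the comparison, at 527, 554, and 437 of 677 entries. The smallest log2 fold change among entries higher in the AngII AAA pool was 1.55, and *Nfkbia* at 1.70 lay near that edge.

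Levels were then brought to 1 scale, that of the comparison of AngII AAA with Saline, by dividing out the constant by which a library differed between comparisons. In the AngII AAA pool, the order was *Nfkbia* at 76.5 FPKM, *Il1r2* at 52.7, *Il1r1* at 44.1, *Il1b* at 26.8, *Myd88* at 23.4, *Il1rn* at 22.7, *Ikbke* at 11.4, and *Nlrp3* at 6.37. Among the genes with recovered reads, the counting intervals of *Il1b* (22.2 to 32.0 FPKM) and *Myd88* (19.8 to 27.4 FPKM) overlapped, and *Il1rn* fell inside both. *Nfkbia* (69.3 to 84.3 FPKM), *Il1r2* (46.3 to 59.7 FPKM), *Ikbke* (9.46 to 13.5 FPKM), and *Nlrp3* (5.11 to 7.85 FPKM) had intervals that overlapped no other, and *Il1r1*, whose reads were not recovered exactly, lay just under that of *Il1r2*. In the AngII No AAA pool, the 4 readable genes lay between 1.59 and 4.66 FPKM and their order was uncertain: the interval of *Il1b* (1.55 to 5.93 FPKM) covered that of *Nlrp3* (1.38 to 3.42 FPKM) almost entirely and overlapped that of *Il1r2* (0.517 to 3.72 FPKM). In the Saline pool, *Nfkbia* at 23.5 FPKM was followed by *Il1r1* at 11.9, *Myd88* at 6.88, *Il1rn* at 3.70, and *Ikbke* at 2.86. The genes read in the Saline pool kept the order *Nfkbia*, *Il1r1*, *Myd88*, *Il1rn*, *Ikbke* in the AngII AAA pool, but *Il1rn* lay inside the interval of *Ikbke* in the Saline pool (1.77 to 4.38 FPKM) and inside that of *Myd88* in the AngII AAA pool, so that its place was not resolved.

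**Figure D2:**
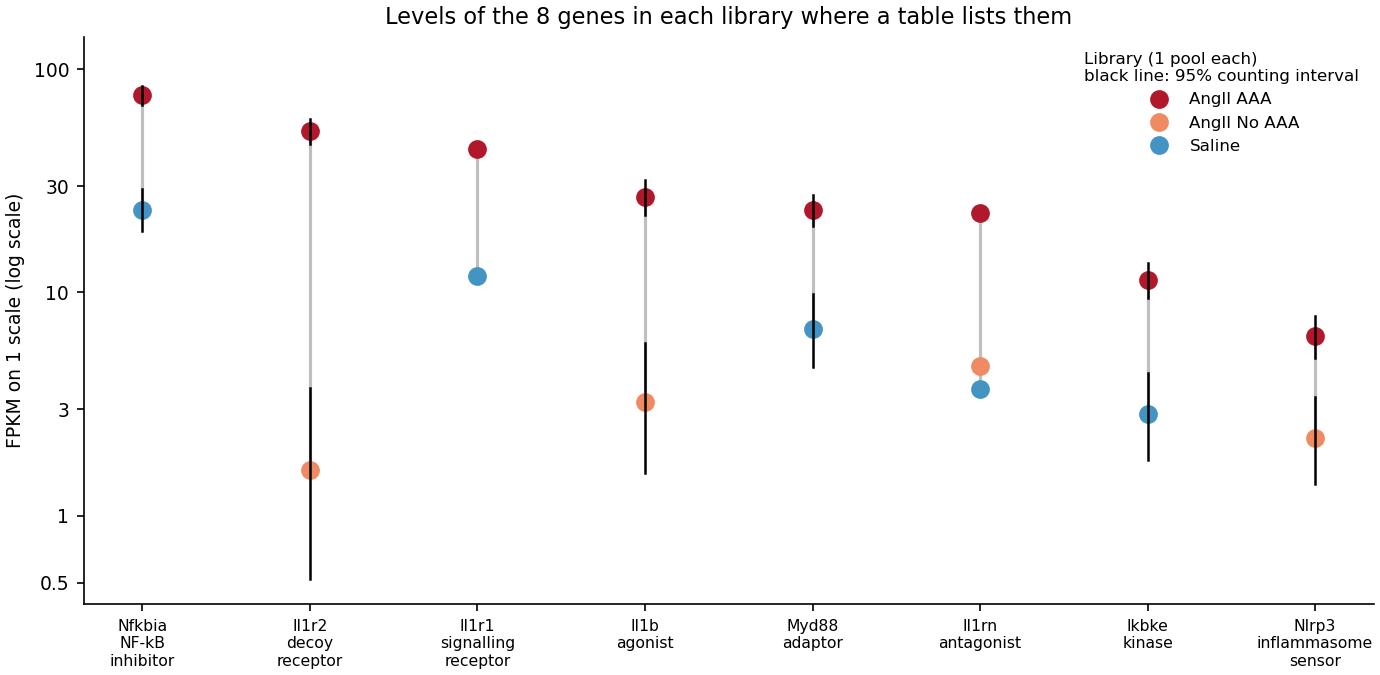
FPKM on 1 scale (y axis, log) of the 8 genes (x axis) in each library in which they could be read, 1 pool per library, with exact 95% counting intervals as black lines where reads were recovered. The AngII AAA pool is highest for each gene, from 6.37 FPKM for *Nlrp3* to 76.5 FPKM for *Nfkbia*, and the gap is widest for *Il1r2*, at 52.7 and 1.59 FPKM.

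The balance of agonist, antagonist, and decoy could be read in both AngII libraries. Per unit of *Il1b*, AngII AAA held 1.97 units of *Il1r2* (counting interval 1.58 to 2.47) and AngII No AAA 0.494 (0.132 to 1.59), and these intervals overlapped slightly. The decoy transcript was thus above the agonist in the AngII AAA pool, whereas the interval for AngII No AAA, from 5 reads for *Il1r2* and 10 for *Il1b*, takes in equal levels. The ratio of *Il1rn* to *Il1b* was 0.848 in AngII AAA and 1.44 in AngII No AAA. With the counting interval of *Il1b* alone, the second ratio ran from 0.786 to 3.01, which takes in the first, so that a difference in this ratio was not detectable at this depth. In the AngII AAA pool, *Il1r2* stood at 1.19 times the level of *Il1r1*, and *Il1rn* at 0.514 times. In the Saline pool, *Il1rn* stood at 0.312 times the level of *Il1r1*. The ratio of *Nfkbia* to *Myd88* was 3.27 in the AngII AAA pool and 3.42 in the Saline pool, and that of *Nfkbia* to *Ikbke* was 6.73 and 8.21, so that the levels of these genes differed between the libraries by similar factors.

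*Il1rn* was the only one of the 8 genes with a value in every library. On 1 scale it had 22.7 FPKM in the AngII AAA pool, 4.66 FPKM in the AngII No AAA pool, and 3.70 FPKM in the Saline pool. The AngII No AAA value exceeded the Saline value by a log2 fold change of 0.33, while the AngII AAA pool stood apart from both. Among 539 single-gene entries, those nearest to it in both log2 ratios to the Saline pool were *G6b*, *Btk*, and *AI467606*. Their distances were 0.0506, 0.0645, and 0.0859 on the log2 scale. The reads of *Il1rn* could be placed only between 3.49 and 26.9 in the AngII No AAA pool and between 2.72 and 20.9 in the Saline pool. The distances leave out counting error, so which entries lie nearest was not resolved. *Btk*, a kinase of B cell and myeloid receptor signalling, had 9.76, 2.03, and 1.55 FPKM in the same order of libraries, and *G6b*, an inhibitory receptor of platelets, had 17.5, 3.42, and 2.77 FPKM.

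The wider pathway was described by 8 lists with 136 symbols, older names included. Beside the 8 genes, 20 further list genes were listed in AngII AAA vs. AngII No AAA, 33 in AngII AAA vs. Saline, and 11 in AngII No AAA vs. Saline. Every one of them was higher in the first library, as were 79%, 84.6%, and 63.5% of all entries. The medians of their log2 ratios were 2.21, 3.09, and 1.69, compared with 1.63, 2.26, and 1.16 over all entries, in each case over entries above 0 in both libraries. Membership of a list was set with earlier results of these data known, and the counts are a description.

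Of 12 symbols for IL-1 family ligands, 3 were listed. *Il33*, an alarmin of barrier and stromal cells, had 73.4, 30.7, and 9.96 FPKM in AngII AAA, AngII No AAA, and Saline. It was the only ligand listed as higher in AngII No AAA than in Saline. *Il1f9*, which encodes the ligand IL-36γ, had 12.4 FPKM in the AngII AAA pool and 1.33 FPKM in the Saline pool, from 70 and 5 reads. *Il1a* and *Il18* were not listed in any comparison. Of 8 family receptors, *Il18rap*, the accessory chain of the IL-18 receptor, was listed beside *Il1r1*, at 6.13, 1.31, and 0.715 FPKM. Of 5 decoys and antagonists, *Il1r2* and *Il1rn* were listed, and *Il18bp*, *Sigirr*, and *Il36rn* were not.

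Of 21 inflammasome genes, 7 were listed, *Nlrp3* included, and none of them in AngII No AAA vs. Saline. *Mefv*, which encodes the sensor pyrin, had 9.60 FPKM in the AngII AAA pool, 1.71 in the AngII No AAA pool, and 0.141 in the Saline pool, where its level corresponds to at most 0.999 of a read, so that its log2 fold change of 6.09 has no firm base. *Aim2*, a sensor of DNA in the cytoplasm, had 7.35 and 1.38 FPKM in AngII AAA vs. Saline, *Casp4*, the caspase that senses bacterial lipopolysaccharide, 11.3 and 2.12 FPKM, and *Naip2*, a partner of the NLRC4 sensor, 4.62 and 0.548 FPKM. *Nlrp12*, a relative of *Nlrp3*, had 4.56 and 1.24 FPKM in AngII AAA vs. AngII No AAA. *Casp1* and *Pycard*, the protease and the adaptor of the inflammasome, were not listed.

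Of 16 adaptors and kinases below the receptors, only *Myd88* and *Pik3ap1* were listed. *Pik3ap1*, an adaptor that links these receptors to phosphoinositide 3-kinase, had 15.3, 4.25, and 3.17 FPKM, from 274, 52, and 38 reads. The Irak kinases and *Traf6*, which act directly below MyD88, were not listed. The paper, however, counts *Irak3* among the differential genes behind its IL-1 signalling result for AngII AAA vs. Saline. The source of this discrepancy was not tested. The next list held 14 genes of Toll-like receptors, most of which signal through the same adaptor, and of their co-receptors. Of these, 4 were listed in AngII AAA vs. AngII No AAA, 8 in AngII AAA vs. Saline, and 3 in AngII No AAA vs. Saline, each time with the co-receptor *Cd14*. *Tlr13*, a sensor of bacterial ribosomal RNA, had 34.1, 3.84, and 0.870 FPKM, from 470, 36, and 8 reads. *Cd14*, the co-receptor for lipopolysaccharide, had 88.7, 19.3, and 8.15 FPKM. *Tlr8* had 10.3 and 4.33 FPKM in the AngII libraries and was listed at 0 in the Saline pool.

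Of 24 NF-kB subunits, inhibitors, and kinases, 4 were listed, all inhibitors or kinases apart from *Bcl3*, and no DNA-binding subunit. *Bcl3*, a nuclear IκB protein that acts with NF-kB dimers, had 31.7, 17.6, and 5.24 FPKM, from 200, 78, and 22 reads, and was the only NF-kB gene listed in AngII No AAA vs. Saline. *Nfkbie*, which encodes another IκB, had 8.68 and 2.89 FPKM in AngII AAA vs. AngII No AAA. *Tnfaip3*, a widely used feedback inhibitor of the pathway, was not listed.

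Of 36 genes known as induced by IL-1 or NF-kB, 18 were listed. Their median log2 fold change was 2.87 over 10 genes in AngII AAA vs. AngII No AAA, 3.85 in AngII AAA vs. Saline, where 15 were listed and 2 of these stood at 0 in the Saline pool and are left out of the median (3.94 with them placed at the top), and 2.12 over 6 genes in AngII No AAA vs. Saline. *Cxcl2*, a chemokine for neutrophils, had 67.5, 5.53, and 1.61 FPKM in AngII AAA, AngII No AAA, and Saline, and *Cxcl1* had 28.2, 4.51, and 1.84 FPKM. *Ccl7*, a chemokine for monocytes, had 59.0, 6.96, and 2.19 FPKM, from 162, 13, and 4 reads. *Mmp9*, a gelatinase, had 76.1, 4.85, and 3.99 FPKM, from 829, 36, and 29 reads, so that the AngII No AAA and Saline libraries were close. *Ptgs2*, the inducible cyclooxygenase, had 24.7, 6.40, and 1.16 FPKM and *Lcn2*, an iron-binding secreted protein, had 187, 63.2, and 6.66 FPKM, and both were listed in all 3 comparisons. *Il6* and *Ccl4* were listed at 0 in the Saline pool, at 6.16 and 9.71 FPKM in the AngII AAA pool.

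**Figure D3:**
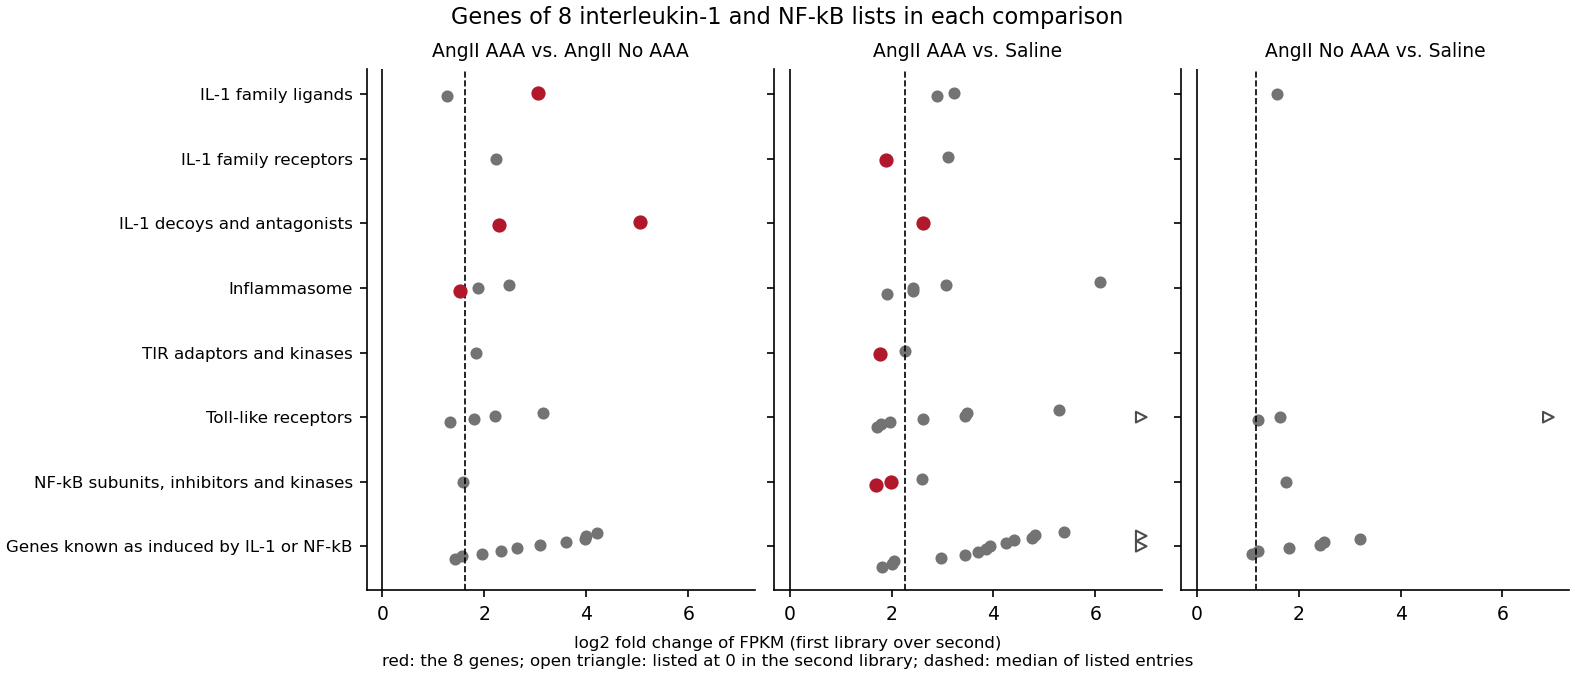
Log2 fold change of FPKM (x axis) for each listed gene of the 8 pathway lists (rows), by comparison, with the 8 chosen genes in red, open triangles for genes listed at 0 in the second library, and the median of all entries dashed. All points lie above 0, and in AngII No AAA vs. Saline the rows of IL-1 family receptors, decoys, inflammasome genes, and adaptors hold no gene.

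With values in every library, 21 of 22 pathway genes (95.5%) followed the order AngII AAA over AngII No AAA over Saline, compared with 426 of 558 entries (76.3%). The exception was *Ccl2*, a chemokine for monocytes, with 78.4 FPKM in the AngII AAA pool, 4.25 in the AngII No AAA pool, and 5.42 in the Saline pool. Those values came from 217, 8, and 10 reads, and the lower pair of counting intervals overlapped (1.83 to 8.37 and 2.60 to 9.97 FPKM). Counting intervals could be computed in all 3 libraries for 13 of the 22 genes. A value in every library required a listing that involved AngII AAA, which favoured its separation. For all 13 genes, the interval of AngII AAA overlapped neither of the others. Those of AngII No AAA and Saline overlapped for 8 of the 13, which were *Ccl2* and 7 genes that followed the order (*Il18rap*, *Pik3ap1*, *Birc3*, *Ccl5*, *Ccl7*, *Cxcl1*, and *Mmp9*), so that the order of these libraries was not resolved for them. By FPKM alone, the step from Saline to AngII No AAA was small for *Il1rn*, *Mmp9*, and *Pik3ap1* and large for *Lcn2*, *Ptgs2*, *Bcl3*, and *Il33*. No counting interval could be computed for *Il1rn* or *Il33*.

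**Figure D4:**
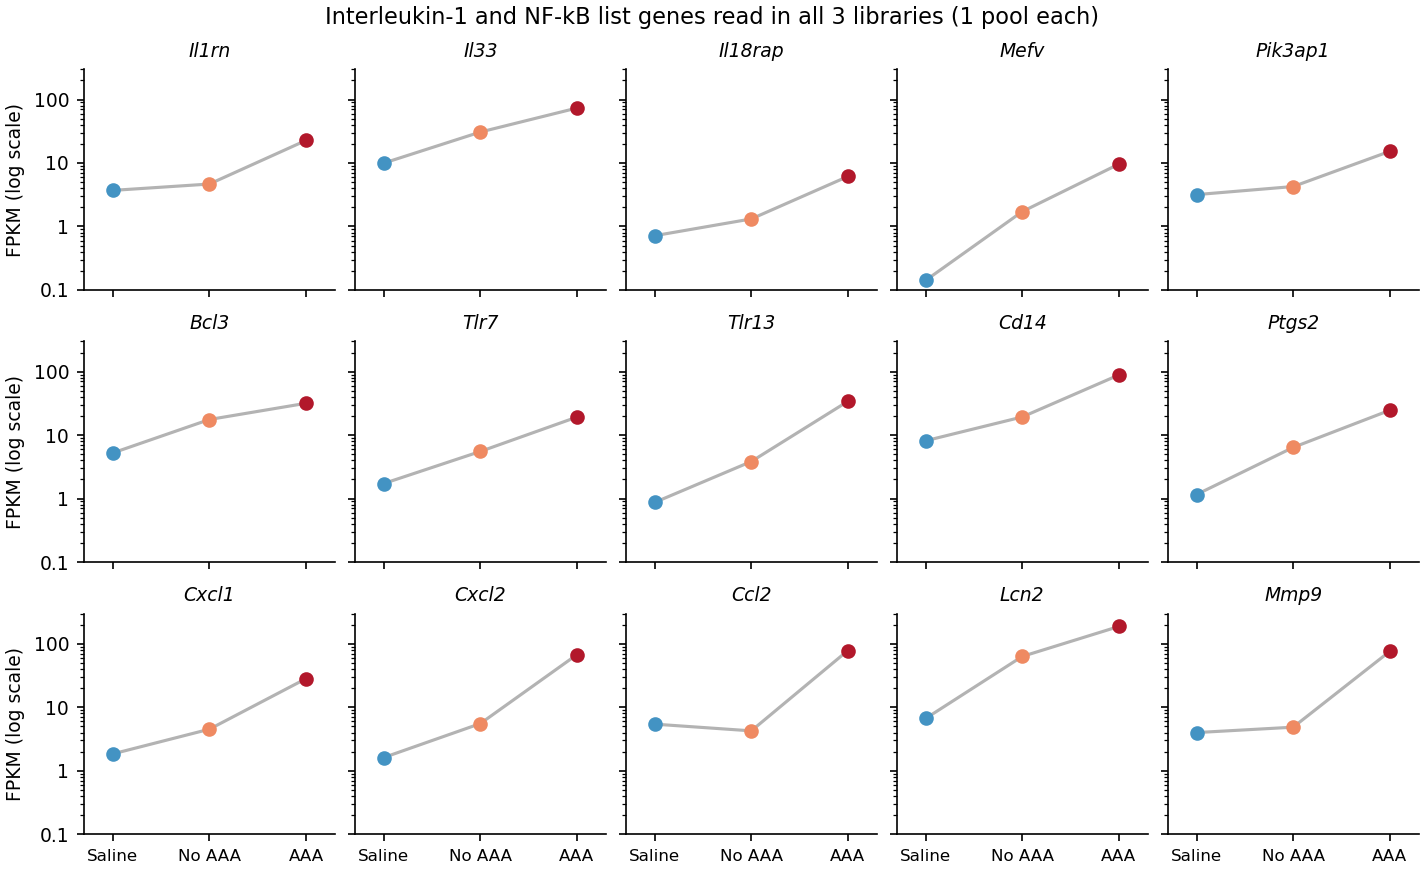
FPKM (y axis, log) in the Saline, AngII No AAA, and AngII AAA libraries (x axis, 1 pool each, lines only to guide the eye) for 15 list genes with values in all 3 libraries. By FPKM alone, *Il1rn* and *Mmp9* are nearly level from Saline to AngII No AAA, whereas *Lcn2* goes from 6.66 to 63.2 FPKM. Counting error is not drawn, and no counting interval could be computed for *Il1rn*.

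Markers of cell types differed between the same libraries, and their part in the values of the 8 genes was not tested. Over all entries, 79% in AngII AAA vs. AngII No AAA, 84.6% in AngII AAA vs. Saline, and 63.5% in AngII No AAA vs. Saline were higher in the first library. Of 13 neutrophil markers, 6 were listed in AngII AAA vs. AngII No AAA and all 6 were higher in the AngII AAA pool, with a summed level of 1069 FPKM against 38.0 FPKM and *Stfa2l1* at 0 in the latter. Their median log2 fold change was 4.60, with *S100a8* at 4.94, *S100a9* at 4.85, and *Csf3r* at 4.60, and that of *Il1r2* at 5.05 exceeded each of the finite ones. Against the Saline pool, 7 were listed, all higher, at sums of 1171 and 51.8 FPKM, and in AngII No AAA vs. Saline none was listed. Of 15 monocyte and macrophage markers, 10 were listed against the AngII No AAA pool (sums of 1805 and 314 FPKM, median 2.39), 13 against the Saline pool (2711 and 271 FPKM, median 3.15), and 9 in AngII No AAA vs. Saline (707 and 264 FPKM, median 1.43), all higher in the first library and none at 0. Against the AngII No AAA pool, *Il1rn* at 2.28 and *Il1b* at 3.05 lay nearer to the macrophage median of 2.39 than *Il1r2* at 5.05 did. *Il1r2* was not listed against the Saline pool. By FPKM in the AngII AAA pool, *Lyz2*, *C1qb*, and *Cd68* were the highest of the 13 listed. Of 10 platelet markers, 7, 6, and 3 were listed in the same order of comparisons. They were higher in the AngII AAA pool (medians 3.46 and 2.59) and lower in the AngII No AAA pool than in the Saline pool (median -1.44). *Il1b* at 3.05 and, against the Saline pool, *Il1rn* at 2.62 lay nearer to the platelet medians than to those of macrophages. Against the AngII No AAA pool, *Il1rn* at 2.28 lay nearer to the macrophage median. The adrenal cortex median there was 4.52, close to the neutrophil 4.60, and the cell source of the 8 genes was not tested.

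Smooth muscle markers, which define the aortic media, were lower in the AngII AAA pool. Of 14, 7 were listed against the AngII No AAA pool (sums of 752 and 2525 FPKM, median -1.74) and 3 against the Saline pool (62.9 and 287 FPKM, median -2.32), with *Acta2* at 304 and 926 FPKM in the former. Adrenal cortex markers, from a gland that lies beside the suprarenal aorta, were at 476 and 16.3 FPKM in sum against the AngII No AAA pool (7 of 8 listed, median 4.52) and at 455 and 12.9 FPKM against the Saline pool (6 of 8, median 4.87). Skeletal muscle markers were lower than in the Saline pool in both AngII libraries, with 4 and 10 of 12 listed. Of 9 T and B cell markers, only *Cd79a* and *Cd79b* were listed, both higher in the AngII AAA pool. Of 10 endothelial markers, only *Emcn* was listed, at 43.6 and 14.1 FPKM in AngII AAA vs. Saline. Of 8 fibroblast markers, 1, 1, and 4 were listed, with *Pi16* lower in AngII AAA than in AngII No AAA and *Col3a1* higher in AngII AAA than in Saline.

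**Figure D5:**
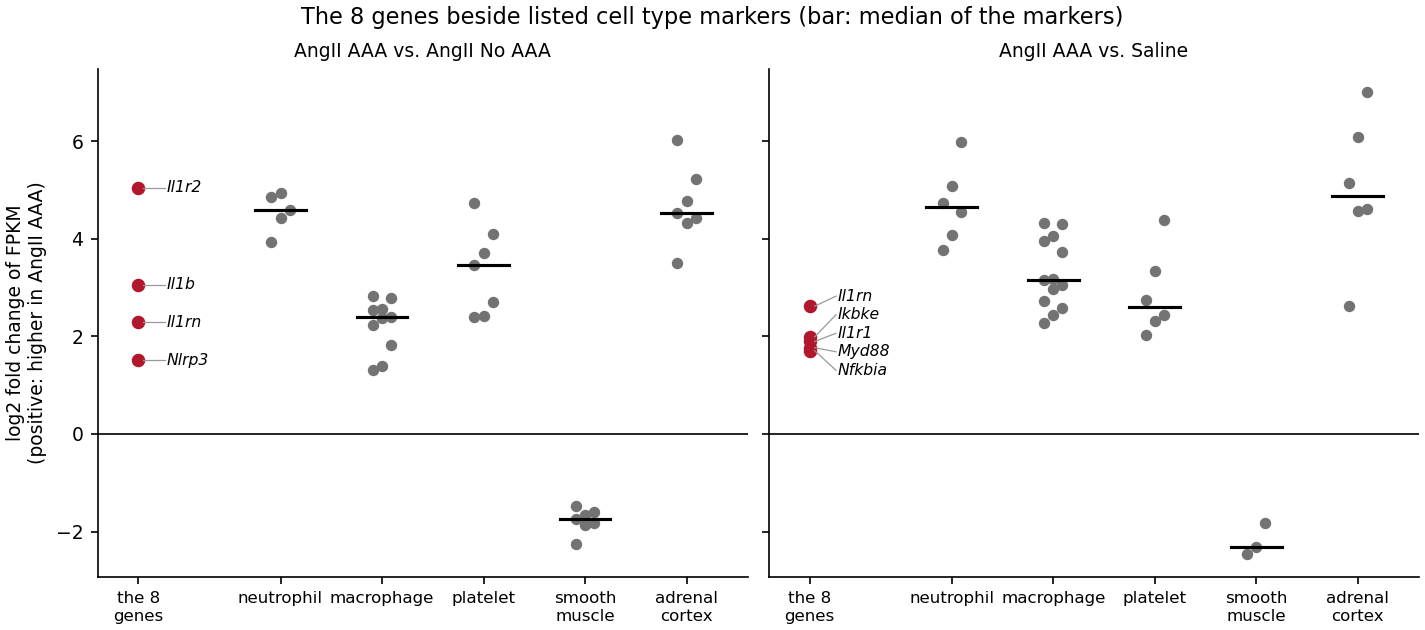
Log2 fold change of FPKM (y axis) of the 8 genes (red) beside the listed markers of 5 cell types (grey, bar at the median) in the AngII AAA pool against each of the other libraries. *Il1r2* at 5.05 sits above the neutrophil median of 4.60 and the adrenal cortex median of 4.52, and the other members lie at or below 3.05.

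The genes for both IL-1 receptors are neighbours in the genome. In the coordinates of the files (mm9, per the submitters' notes), *Il1r2* and *Il1r1* lay 99.9 kb apart on chromosome 1, and the listed *Il18rap* lay 199.2 kb beyond *Il1r1*. On chromosome 2, *Il1f9* lay 143.3 kb from *Il1rn*. The genes of the chromosome 1 cluster had unlike differences, with log2 fold changes of 5.05 for *Il1r2* and 2.22 for *Il18rap* in AngII AAA vs. AngII No AAA, and of 1.89 for *Il1r1* and 3.10 for *Il18rap* in AngII AAA vs. Saline.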

How the data were processed

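RNA-seq of 3 pooled suprarenal libraries was used. The authors used FastQC for quality filtering, HISAT2 for alignment to mm9, and Cufflinks and Cuffdiff for quantification, per the submitters' processing notes, with versions not given in the sources used here. The deposited values are FPKM, 2 libraries per comparison, in entries kept by the authors at an unadjusted p-value under 0.05. Columns of log2 ratios, test scores, p-values, adjusted p-values, and calls were not used.

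Log2 fold changes were recomputed as the ratio of both FPKM values, with no pseudocount. A library was rescaled to its values in AngII AAA vs. Saline by the median ratio over shared entries (1.03 over 385 and 0.915 over 227). Groups came from the sample titles. With 1 library per cohort, no test was made, and a 4-fold difference stood in for a call. The 8 genes and all lists were chosen with earlier results of these data known. All 8 genes were named, and of each list, listed genes with the largest or smallest ratios, and those that a statement turns on. The latter, with genes named as not listed, were chosen after values were seen.

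The reads were recovered after the data were seen. A relative depth between 0.6 and 1.8 was sought that gave the most whole ratios, and reads per FPKM came from genes with 1 transcript in GENCODE M21 (lengths only, a different build). Reads were accepted with a multiple of at most 5 and agreement within 15% for every transcript. Both calculations were tested on simulated data. Python 3.11.15, pandas 2.3.3, numpy 2.4.6, scipy 1.17.1, and matplotlib 3.10.9 were used.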

Additional observations from a re-analysis of the deposited data

How the results depend on the processing

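Of 165 values recomputed under the alternatives, 151 kept their direction and stayed within a factor of 1.5, 9 moved further, and 5 reversed. Counts that went from 3 to 2 or from 5 to 4 are among those kept. Some alternatives could hardly change a value: 17 were levels without rescaling and 9 were a library read from the other comparison. Keeping only entries for a single gene, or those with at least 1 or 5 FPKM in the higher library, changed no count of the 8 genes, although at 5 FPKM the listed inflammasome genes went from 3 to 2 in AngII AAA vs. AngII No AAA and from 5 to 4 in AngII AAA vs. Saline, and the Toll-like receptors from 3 to 2 in AngII No AAA vs. Saline. After the median of all listed entries was subtracted, the log2 fold change became -0.11 for *Nlrp3*, -0.37 for *Il1r1*, -0.50 for *Myd88*, -0.56 for *Nfkbia*, and -0.28 for *Ikbke*, because these genes lay below that median. The same subtraction lowered *Il1b* to 1.43 and *Il1r2* to 3.42. It lowered *Il1rn* to 0.66 against the AngII No AAA pool and to 0.35 against the Saline pool. The number of the 8 genes past the size threshold in AngII AAA vs. Saline was 5 at 3-fold and 0 at 8-fold, compared with 1 at 4-fold. In AngII AAA vs. AngII No AAA, that number was 3 at 3-fold and at 4-fold and 2 at 8-fold. With FPKM + 1, the log2 fold change of *Il1r2* was 4.35, compared with 5.05. For IL-1 family receptors in AngII AAA vs. AngII No AAA, where only *Il18rap* was listed, it was 1.61, compared with 2.22. The median for Toll-like receptors in AngII AAA vs. Saline was 1.76, compared with 2.62, since low values shrink under a pseudocount. No paired analysis was possible because each cohort had 1 pooled library and no result comes from a test. No library could be left out for the same reason. Depth limits the lower value of each ratio most: 5 reads stand behind *Il1r2* and 10 behind *Il1b* in the AngII No AAA pool.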

Other observations

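Receptors of other cytokine families were also read, a group chosen after the values were seen. Of the interleukin receptor genes outside the IL-1 family, 4 were listed in AngII AAA vs. AngII No AAA, 7 in AngII AAA vs. Saline, and 4 in AngII No AAA vs. Saline. All were higher in the first library, as were 79%, 84.6%, and 63.5% of all entries. *Il4ra*, the receptor chain for IL-4 and IL-13, had 69.9 and 15.3 FPKM in AngII AAA and AngII No AAA. *Il2rg*, the chain shared by several lymphocyte cytokine receptors, had 37.3 FPKM in the AngII AAA pool against 4.46 FPKM in the Saline pool, and 19.2 against 4.88 FPKM in AngII No AAA vs. Saline. *Il2rg*, *Il10ra*, *Il17ra*, and *Il13ra1* were listed in AngII No AAA vs. Saline, where their log2 fold changes were 1.97, 1.84, 1.35, and 1.42.

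Receptors for tumour necrosis factor, another activator of NF-kB, followed a similar order. *Tnfrsf1a* had 107 and 30.2 FPKM in AngII AAA vs. Saline and 67.9 and 33.0 FPKM in AngII No AAA vs. Saline, and *Tnfrsf1b* had 29.2 and 8.01 FPKM in AngII AAA vs. AngII No AAA. Among receptors for colony-stimulating factors, *Csf3r*, which neutrophils carry, had a log2 fold change of 4.60 in AngII AAA vs. AngII No AAA, compared with 2.01 for *Csf2rb* and 1.83 for *Csf1r*, which macrophages carry. *Fos*, a subunit of the transcription factor AP-1, had 48.3 and 10.9 FPKM in AngII AAA vs. Saline and 35.3 and 11.9 FPKM in AngII No AAA vs. Saline. *Adcy5*, an adenylyl cyclase, went the other way, with 10.9 and 27.7 FPKM in AngII AAA vs. AngII No AAA.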
